A study of Rattus norvegicus with 16 samples.

Results

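The insulin-like growth factor (IGF) axis was followed here through 8 genes, namely the ligands Igf1 and Igf2, the receptor Igf1r, and the binding proteins Igfbp2, Igfbp3, Igfbp4, Igfbp5 and Igfbp6. They were picked by symbol from the 14324 genes named on the array, and each was measured by 1 probe set. The tissue was the mammary gland of female Wistar Han rats at postnatal day (PND) 50 and PND35. From gestational day 1 until weaning at PND 21 the mothers had been gavaged once a day with the mixture of both compounds, with vinclozolin, an antiandrogenic fungicide, or with genistein, an isoflavone of soy with estrogenic activity. The dose was 1 mg per kg body weight, which the labels give once for the single compounds and the combination, while the control is labelled untreated and no vehicle is named. All animals ate a purified phytoestrogen-free diet, and each litter gave 1 female. The 8 groups were mixture, vinclozolin, genistein and control at PND50 and at PND35, with 2 arrays each, and every array carried pooled RNA of 5 animals, so that the spread measured is that between pools and not between animals.

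IGF1 and IGF2 are secreted ligands that signal through the receptor tyrosine kinase encoded by Igf1r. The binding proteins hold the ligands outside the cell, lengthen their life or keep them from the receptor, and are themselves cut by proteases. In the pubertal gland, IGF1 made in the stroma under growth hormone is known to drive the growth of terminal end buds and ducts together with estrogen, and IGFBP5 is known from rodents for its role in involution after lactation.

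Values are the deposited log2 intensities, in which 1 unit is a doubling, and a probe set's level cannot be set against that of another probe set. All 8 genes passed the filter on dim genes, which was a mean at or above 5.661, and 11796 genes were tested together. Tests are limma's moderated tests with Benjamini-Hochberg adjustment over those genes, and a gene is said to have risen or fallen where the adjusted p lies under 0.05. Replicate pools correlated between 0.9893 and 0.9966 over all probe sets, and the lowest value was that of the vinclozolin pools at PND35. These pools also stood apart in skin and hair follicle markers. The mean over 6 of 10 listed genes was 9.61 and 9.06 there, against 5.91 to 6.18 in the other 14 pools. The filter had included these pools, so the choice of the 6 genes was not independent of this contrast. The lowest values of Krt25, Krt27 and Dsg4, at 4.86, 5.42 and 5.31, lay below 5.661, against means of 5.77, 6.11 and 5.96. Those of Krt10, Krt73 and Sbsn lay above it. All 14 luminal epithelium markers and all 12 white adipocyte markers were above the filter in the mean. So were all 12 fibroblast and all 9 macrophage markers and 11 of 12 named muscle markers, so the filter does not identify the tissue. In RNA of a whole gland, fewer cells of a type and less RNA per cell cannot be told apart.

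With age, Igfbp5, Igfbp6 and Igf1r rose and Igfbp3 fell in the average over the 4 treatments. These are 4 of the 8 genes, 3 higher and 1 lower, against 44.6% of all genes tested in the same comparison (19.4% higher and 25.2% lower), so the share is near the background. The median absolute log2 change of the 8 genes was 0.157, against 0.114 over all genes. The ligands Igf1 and Igf2 and the binding proteins Igfbp2 and Igfbp4 did not pass the test in this average.

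Igfbp5 was the gene of the axis with the clearest age difference. At PND50 it measured 13.01 and 13.05 in the mixture pools, 12.85 and 12.89 in the vinclozolin pools, 12.90 and 12.87 in the genistein pools, and 12.93 and 12.77 in the control pools. At PND35 it measured 12.37 and 12.26 in the mixture pools, 12.59 and 12.55 in the vinclozolin pools, 12.68 and 12.58 in the genistein pools, and 12.61 and 12.48 in the control pools. All 8 PND50 pools thus lay above all 8 PND35 pools, which held for 1.77% of the genes tested (5.76% when pools wholly below are counted too) and for no other gene of the axis. The rise was 0.39 on the log2 scale, or 1.31-fold (SE 0.037, 95% interval 0.31 to 0.47, n = 8 pools per age, adjusted p = 5.48e-05), and it was larger in size than 95.2% of all changes in that comparison. Age accounted for 76.6% of the sum of squares of Igfbp5 over the 16 arrays, and the spread between replicate pools for 4.24%, where the medians over all genes were 24% and 32.2%.

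Igfbp6, which encodes a binding protein with a preference for IGF2, ranged over 10.94 to 11.39 at PND50 (median 11.06), against 10.71 to 11.03 at PND35 (median 10.89). Its mean was higher by 0.25 at PND50 (SE 0.044, adjusted p = 0.00114, n = 8 pools per age), and the 2 ages overlapped. In the overlap lay the mixture and vinclozolin pools at PND50, at 10.94, 11.01, 11.03 and 10.98, together with a control pool at 11.03 and a mixture pool at 10.98 at PND35.

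Igf1r had 9.28 to 9.59 at PND50 (median 9.37) and 9.14 to 9.42 at PND35 (median 9.23). Its mean was higher by 0.15 at PND50 (SE 0.036, adjusted p = 0.00677, n = 8 pools per age). The ages overlapped through a vinclozolin pool of PND35, at 9.32, and both genistein pools of PND35, at 9.42 and 9.29, against 9.16 and 9.17 in the control pools of that age.

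Igfbp3, the main carrier of IGFs in blood and a product of stromal and endothelial cells, moved the other way. Its values were 8.45 to 8.76 at PND50 (median 8.62) and 8.65 to 9.42 at PND35 (median 8.92). It fell by 0.38 on the log2 scale, which is a ratio of 0.770 (SE 0.097, n = 8 pools per age, adjusted p = 0.00893). The pools of the 2 ages overlapped through a single genistein pool at PND35, which stood at 8.65 while its replicate had the highest value of all, 9.42. The replicate SD of Igfbp3, 0.225, was above that of 94.7% of genes tested.

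Igf2, a growth factor transcribed mostly from the paternal allele in rodents, measured 7.15 to 7.60 at PND50 (median 7.39) and 7.26 to 7.83 at PND35 (median 7.5). The log2 change was -0.16 (SE 0.073, n = 8 pools per age, adjusted p = 0.0863). Of its sum of squares, 44.5% lay between replicate pools, the largest share among the 8 genes. Igf1 had a log2 change of 0.06 (SE 0.033, adjusted p = 0.139), Igfbp4 of 0.04 (SE 0.034, adjusted p = 0.403) and Igfbp2 of 0.03 (SE 0.067, adjusted p = 0.767), all with n = 8 pools per age.

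**Figure D1:**
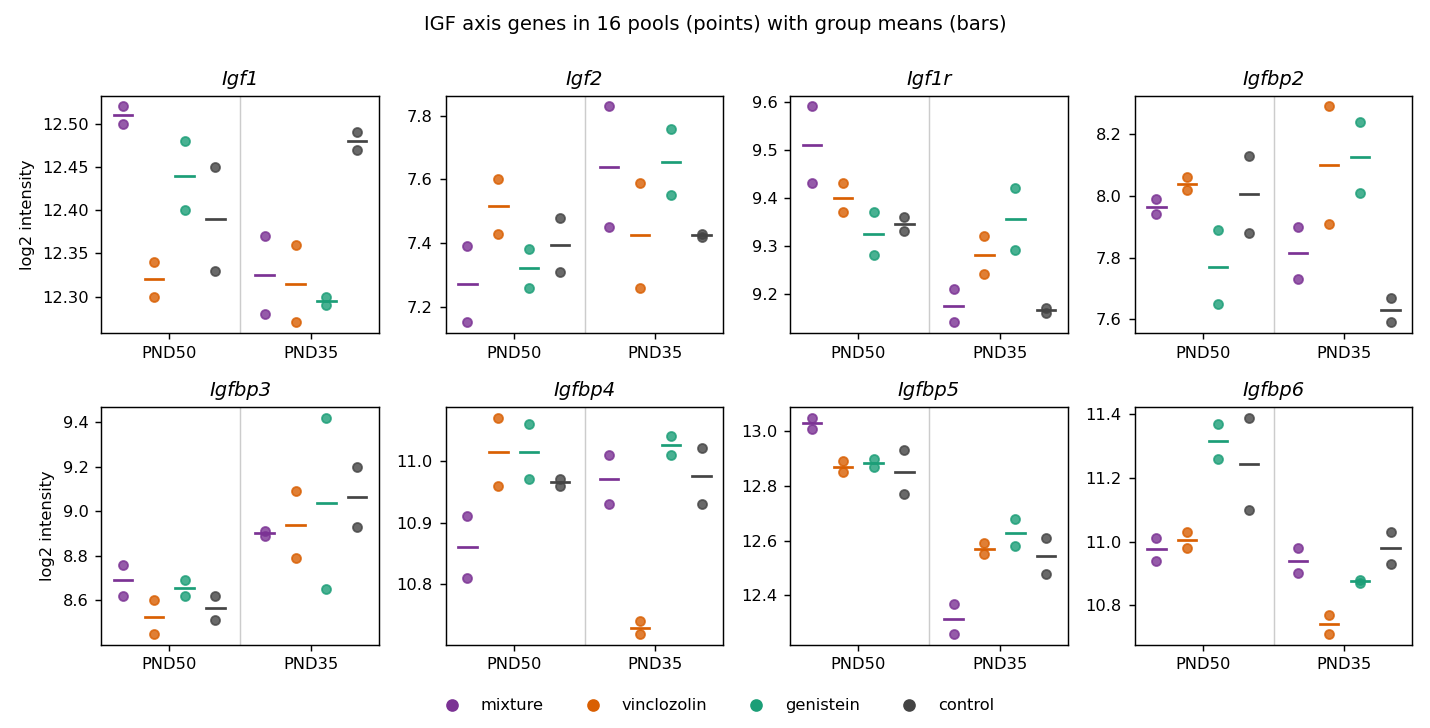
Log2 intensity (y axis, its own scale in each panel) of the 8 genes in the 16 pools, PND50 at left and PND35 at right, with treatments in colour, points for pools and bars for group means of 2 pools. Igfbp5 separates the ages completely, with PND50 pools between 12.77 and 13.05 and PND35 pools between 12.26 and 12.68.

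Promoter windows are shown for the 4 genes called with age, to let their sequence be set side by side. They come from RefSeq on the assembly GRCr8, with 250 bases before and 50 after the annotated start, 5′ to 3′ on the gene's strand, and all 8 genes matched, Igf2 with 2 windows. Capitals mark matches on either strand to the motifs searched. The TATA box was searched as TATAAA and the element bound by STAT5 as TTCNNNGAA. For the GC box, a site of Sp1, the letters were GGGCGG. The E box, a site of basic helix-loop-helix factors, was taken as CACGTG, and the full palindromic response elements of the estrogen and the androgen receptor were searched as well.
Igfbp5, chr9:81914138-81914437, - strand: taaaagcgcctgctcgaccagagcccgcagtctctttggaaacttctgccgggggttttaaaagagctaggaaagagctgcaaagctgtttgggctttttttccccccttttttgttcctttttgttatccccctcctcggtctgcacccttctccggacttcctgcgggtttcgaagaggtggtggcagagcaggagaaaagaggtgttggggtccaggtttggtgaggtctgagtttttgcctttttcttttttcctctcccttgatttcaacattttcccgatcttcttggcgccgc
Igfbp6, chr7:135154669-135154968, + strand: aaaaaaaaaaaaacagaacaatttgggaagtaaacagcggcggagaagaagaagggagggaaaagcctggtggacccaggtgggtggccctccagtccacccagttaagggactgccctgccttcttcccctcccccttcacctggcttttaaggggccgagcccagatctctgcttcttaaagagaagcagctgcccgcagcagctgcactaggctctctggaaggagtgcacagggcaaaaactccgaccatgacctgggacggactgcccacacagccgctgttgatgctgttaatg
Igf1r, chr1:130959747-130960046, + strand: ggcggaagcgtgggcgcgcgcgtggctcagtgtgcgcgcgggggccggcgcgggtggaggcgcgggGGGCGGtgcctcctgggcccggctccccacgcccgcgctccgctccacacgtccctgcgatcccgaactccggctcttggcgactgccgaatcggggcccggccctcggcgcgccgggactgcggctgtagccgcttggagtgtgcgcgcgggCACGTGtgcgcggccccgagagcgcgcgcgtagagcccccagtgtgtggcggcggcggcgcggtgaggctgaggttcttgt
Igfbp3, chr14:86277895-86278194, - strand: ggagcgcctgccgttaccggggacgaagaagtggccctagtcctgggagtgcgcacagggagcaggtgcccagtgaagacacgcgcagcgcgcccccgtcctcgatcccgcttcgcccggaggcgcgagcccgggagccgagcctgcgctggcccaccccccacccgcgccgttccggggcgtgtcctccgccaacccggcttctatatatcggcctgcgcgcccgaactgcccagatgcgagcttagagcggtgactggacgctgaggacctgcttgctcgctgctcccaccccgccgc

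The windows were unlike in base composition, with 78% G and C for Igf1r, 71.7% for Igfbp3, 55.3% for Igfbp6 and 50.7% for Igfbp5, against a median of 51.7% over all 33469 windows. The Igf1r window held a GC box, as 33.1% of all windows did, and an E box, as 6.42% did, and the capitals of the 2 matches did not overlap. The other 3 printed windows held none of the 6 motifs. Of the 9 windows of the axis, 4 had a GC box, 2 an E box (Igf1r and Igfbp2) and 1 a TATA box (Igfbp4), which 14.2% of all windows had. None had the letters of the STAT5, estrogen or androgen elements, which 8.87%, 0.0269% and 0.0149% of all windows had. Igfbp2 and Igfbp5 are neighbours on chromosome 9, on opposite strands and with windows 49.6 kb apart, and their values over the 16 arrays had a Pearson's r of 0.16.

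Within single treatments the age comparison rested on 2 pools per age. In the mixture groups 3 of the 8 genes rose with age and none fell, against 32.7% of all genes called (14.4% higher and 18.3% lower). There Igfbp5 rose by 0.71, or 1.64-fold (SE 0.074, adjusted p = 0.000305, n = 2 pools per age), Igf1r by 0.33 (SE 0.073, adjusted p = 0.0064) and Igf1 by 0.19 (SE 0.065, adjusted p = 0.044). Igf1 had 12.50 and 12.52 in the mixture pools at PND50, against 12.37 and 12.28 in the mixture pools at PND35. Without PND50 mixture replicate 1 the count of 3 became 1, with adjusted p = 0.0523 for Igf1r and 0.111 for Igf1, while Igfbp5 was still called. Over all alternatives the Igf1 call held in 12 of 26, the Igf1r call in 25 and the Igfbp5 call in 26.

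In the genistein groups Igfbp6 rose by 0.44 (SE 0.088, adjusted p = 0.0361, n = 2 pools per age), the sole gene of the 8 called, against 2.77% of all genes (0.814% higher and 1.96% lower). Its values were 11.26 and 11.37 at PND50 and 10.87 and 10.88 at PND35. The call was lost without PND35 genistein replicate 1 or 2, PND50 genistein replicate 1 or 2, or PND50 mixture replicate 1 or 2, with adjusted p of up to 0.175. In the vinclozolin groups Igfbp4 rose by 0.28 (SE 0.067, adjusted p = 0.048, n = 2 pools per age), again the sole call of the 8, against 2.78% of all genes (1.14% higher and 1.64% lower). It stood at 10.96 and 11.07 at PND50 and at 10.72 and 10.74 at PND35, and was no longer called when any 1 of the 16 pools was left out (adjusted p up to 0.29).

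In the control groups none of the 8 genes passed limma's test, against 0.865% of all genes (0.627% higher and 0.237% lower). An unadjusted p under 0.05 was found for 5 of the 8, and for 2154 of the 11796 genes tested. Igfbp5 had a log2 change of 0.30 (SE 0.074, n = 2 pools per age, adjusted p = 0.0804), Igfbp3 of -0.50 (SE 0.19, adjusted p = 0.208), Igfbp2 of 0.38 (SE 0.13, adjusted p = 0.184), Igfbp6 of 0.26 (SE 0.088, adjusted p = 0.162) and Igf1r of 0.18 (SE 0.073, adjusted p = 0.226). In each of these 5 the PND50 control pools did not overlap the PND35 control pools. The same held for Igf1, with a log2 change of -0.09 and an unadjusted p of 0.21 in limma's test. How many of all genes had no overlap between 2 and 2 pools was not counted. Without PND50 control replicate 2 the Igfbp2 value was 0.25 and the Igfbp6 value 0.12, and without PND50 control replicate 1 the Igfbp6 value was 0.41. The sign of the age change was the same in all 4 treatments for Igfbp3, Igfbp5 and Igfbp6. For the other 5 genes it was not, with 0.15 in mixture, -0.06 in vinclozolin, -0.35 in genistein and 0.38 in control groups for Igfbp2. Igf2 had -0.37 in mixture and 0.09 in vinclozolin groups, Igf1r 0.33 in mixture and -0.03 in genistein groups, Igfbp4 -0.11 in mixture and 0.28 in vinclozolin groups, and Igf1 0.19 in mixture and -0.09 in control groups. These differences between treatments were tested against control only, as given with the exposures. The Igfbp3 value in genistein groups, -0.38, turned on the PND35 genistein pools, at -0.76 without replicate 1 (adjusted p = 0.0378) and 0.01 without replicate 2 (adjusted p = 0.992), and that in vinclozolin groups, -0.42, was -0.27 without PND35 vinclozolin replicate 1.

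**Figure D2:**
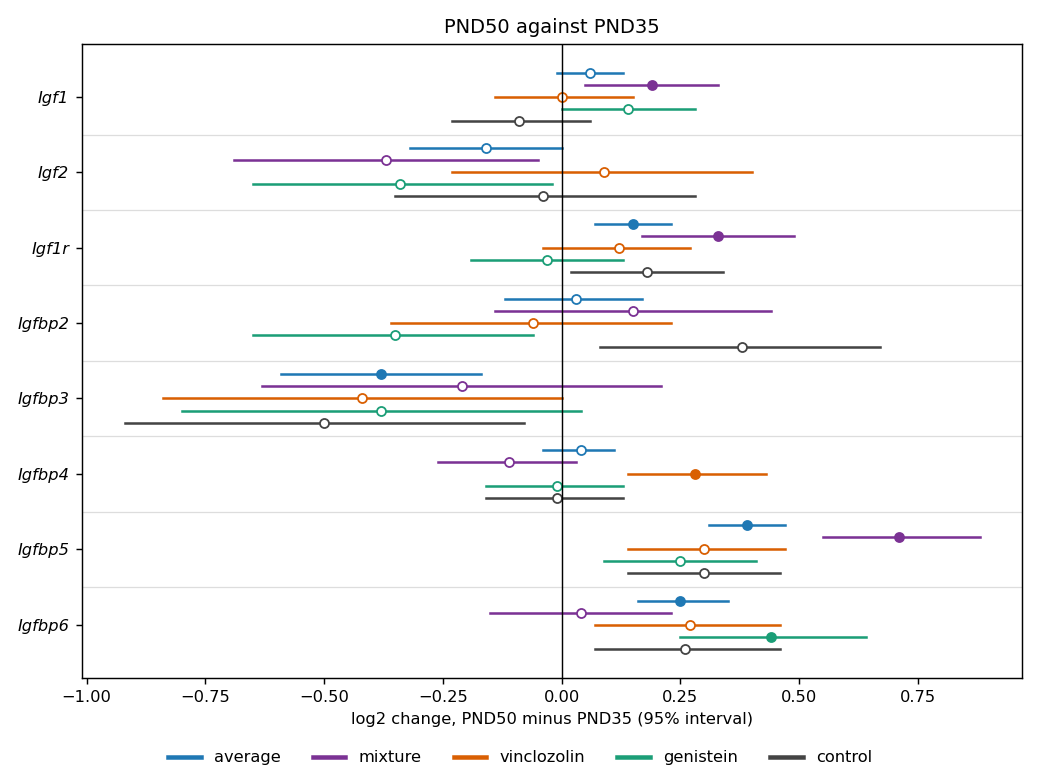
Log2 change of PND50 against PND35 pools (x axis, PND50 minus PND35) of each gene with its 95% interval, for the average over treatments and within each treatment. Filled points passed the adjusted test and open points did not; Igfbp5 lies right of 0 in all 5 comparisons, from 0.25 to 0.71, and Igfbp3 left of 0 in all 5, from -0.50 to -0.21, where the genistein value of -0.38 becomes 0.01 without PND35 genistein replicate 2.

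No gene of the axis passed the test for exposure against control at either age. At PND35 the counts were 0 of 8 with genistein, vinclozolin and the mixture, against 0%, 1.34% and 0% of all genes in limma's test. At an unadjusted p under 0.05 they were 3, 4 and 2 of the 8, against 1311, 1716 and 1799 of the 11796 genes tested. At PND50 the counts past the adjusted threshold were again 0 of 8 with each exposure, against 0%, 0% and 0.00848% of all genes. At an unadjusted p under 0.05 they were 0, 1 and 3 of the 8, against 307, 713 and 874 of the 11796 genes tested. With 2 pools per group the median SE of a log2 change over all genes was 0.0941. The 3 exposures of an age share the same 2 control pools, so what they have in common is not independent.

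Igf1 stood at 12.37 and 12.28 in the mixture pools at PND35, at 12.36 and 12.27 in the vinclozolin pools and at 12.30 and 12.29 in the genistein pools, against 12.49 and 12.47 in the control pools. All 6 exposed pools lay below both control pools, as was the case for 5.6% of the genes tested, or 12.1% with those wholly above. The log2 changes were -0.16 for the mixture (SE 0.065, adjusted p = 0.288), -0.17 for vinclozolin (SE 0.065, adjusted p = 0.271) and -0.19 for genistein (SE 0.065, adjusted p = 0.347), each with n = 2 pools per group. The summary of macrophage markers had the same arrangement, with 9 of 9 listed genes measured and a mean of 8.98 to 9.38 in the exposed pools and 9.47 and 9.60 in the control pools. Their part in the Igf1 values was not tested. At PND50 the mixture pools, 12.50 and 12.52, lay above the control pools, 12.45 and 12.33 (log2 change 0.12, SE 0.065, adjusted p = 0.716), and the vinclozolin and genistein pools overlapped them.

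Igfbp2, which encodes a binding protein made by epithelial and other cells, showed the opposite arrangement. It had 7.90 and 7.73 in the mixture pools at PND35, 7.91 and 8.29 in the vinclozolin pools and 8.24 and 8.01 in the genistein pools, against 7.59 and 7.67 in the control pools. All 6 exposed pools lay above both control pools, as for 6.47% of genes. Its log2 changes were 0.18 for the mixture (SE 0.13, adjusted p = 0.537), 0.47 for vinclozolin (SE 0.13, adjusted p = 0.125) and 0.50 for genistein (SE 0.13, adjusted p = 0.264), with n = 2 pools per group. The genistein value was larger in size than 99.1% of the changes in its comparison. The vinclozolin value turned on single pools, at 0.66 without PND35 vinclozolin replicate 1, which passed (adjusted p = 0.0147), and at 0.28 without PND35 vinclozolin replicate 2 (adjusted p = 0.647). The mixture value was 0.10 without PND35 mixture replicate 1 and 0.27 without PND35 mixture replicate 2. Luminal markers in the same pools averaged 9.66 and 9.61 with the mixture, 9.75 and 9.94 with vinclozolin and 10.09 and 9.80 with genistein, against 9.64 and 9.55 in the controls. Basal and myoepithelial markers, with 6 of 9 listed genes tested, averaged 9.83 to 10.20 in the exposed pools, against 9.75 and 9.72 in the controls. Of those 6 genes 1 was called higher with vinclozolin, whose pools had the high skin and hair follicle markers, against 1.34% of all genes. None was called with genistein or the mixture. Macrophage markers lay the other way, at 8.98 to 9.38 against 9.47 and 9.60. The part of these markers in the Igfbp2 values was not tested.

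At PND50 Igfbp2 had 7.65 and 7.89 in the genistein pools and 7.88 and 8.13 in the control pools, which overlapped (log2 change -0.23, SE 0.13, adjusted p = 1). The test of the difference between the ages, the genistein effect at PND50 minus that at PND35, gave -0.73 (SE 0.19, 95% interval -1.14 to -0.31, unadjusted p = 0.00243, adjusted p = 0.507). None of the 8 genes passed this test for genistein, vinclozolin or the mixture, against 0%, 0.381% and 0% of all genes. In each, 2 of the 8 had an unadjusted p under 0.05, against 906, 792 and 1435 of the 11796 genes tested.

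Other binding proteins differed in single exposures without passing the test. Igfbp4 was at 10.72 and 10.74 in the vinclozolin pools at PND35, against 10.93 and 11.02 in the control pools (log2 change -0.24, SE 0.067, adjusted p = 0.113, n = 2 pools per group). Those were the lowest Igfbp4 values of the series, in the pools with the high skin and hair follicle markers, whose part in them was not tested. Igfbp5 was at 12.37 and 12.26 in the mixture pools at PND35, against 12.61 and 12.48 in the control pools (log2 change -0.23, SE 0.074, adjusted p = 0.203), and at 13.01 and 13.05 against 12.93 and 12.77 at PND50 (log2 change 0.18, SE 0.074, adjusted p = 0.641), the last value being 0.10 without PND50 control replicate 2. The mixture thus held both the lowest and the highest Igfbp5 group mean, 12.31 at PND35 and 13.03 at PND50. The mixture effect at PND50 minus that at PND35 was 0.41 for Igfbp5 (SE 0.10, unadjusted p = 0.00211, adjusted p = 0.253). Skeletal muscle markers moved alongside, with means of 7.47 and 6.35 in the mixture pools at PND50 and of 9.21 and 10.63 in the mixture pools at PND35, over 11 of 14 listed genes, and their part was not tested.

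Igfbp6 had lower values with vinclozolin at both ages, without passing the test. It had 11.03 and 10.98 in the vinclozolin pools at PND50, against 11.10 and 11.39 in the control pools, and 10.77 and 10.71 in the vinclozolin pools at PND35, against 11.03 and 10.93 in the control pools. Vinclozolin pools lay below control pools at both ages, with a log2 change of -0.24 at each age (adjusted p = 0.8 at PND50 and 0.243 at PND35). How many of all genes were arranged in this way was not counted. The PND50 value turned on the control pools, at -0.38 without PND50 control replicate 1 and -0.09 without PND50 control replicate 2. Averaged over the ages it was -0.24 (SE 0.063, n = 4 pools per treatment, adjusted p = 0.109), which did not pass, where 0 of 8 genes and 0.788% of all genes did. Without PND50 control replicate 1 it was -0.31 and passed (adjusted p = 0.0474), and without PND50 control replicate 2 it was -0.17 (adjusted p = 0.227). Some markers were lower in the same average, where the median log2 change over all genes was -0.017. Negative values were found for 9 of 9 macrophage markers (median -0.34, 2 called lower) and 12 of 12 white adipocyte markers (median -0.21, 1 called lower). None of 12 fibroblast markers was positive (median -0.09, none called). Positive values were found for 11 of 14 luminal, 5 of 6 basal and myoepithelial, 10 of 11 muscle and 6 of 6 skin and hair follicle markers. The part of all these markers in the Igfbp6 values was not tested. Macrophage markers averaged 9.18 and 9.18 in the vinclozolin pools at PND50, against 9.46 and 9.34 in the control pools, and 9.22 and 8.98 in the vinclozolin pools at PND35, against 9.47 and 9.60 in the control pools. The average for Igfbp6 was -0.15 for the mixture (SE 0.063, adjusted p = 0.423) and -0.02 for genistein (SE 0.063, adjusted p = 0.98), and 0% of all genes passed in each of these 2 averages. At PND50 alone the mixture pools, 10.94 and 11.01, differed from the same control pools by -0.27 (SE 0.088, adjusted p = 0.539). That value too turned on the control pools, at -0.41 without PND50 control replicate 1 and -0.12 without PND50 control replicate 2. At PND35 the mixture value was -0.04 (adjusted p = 0.855).

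**Figure D3:**
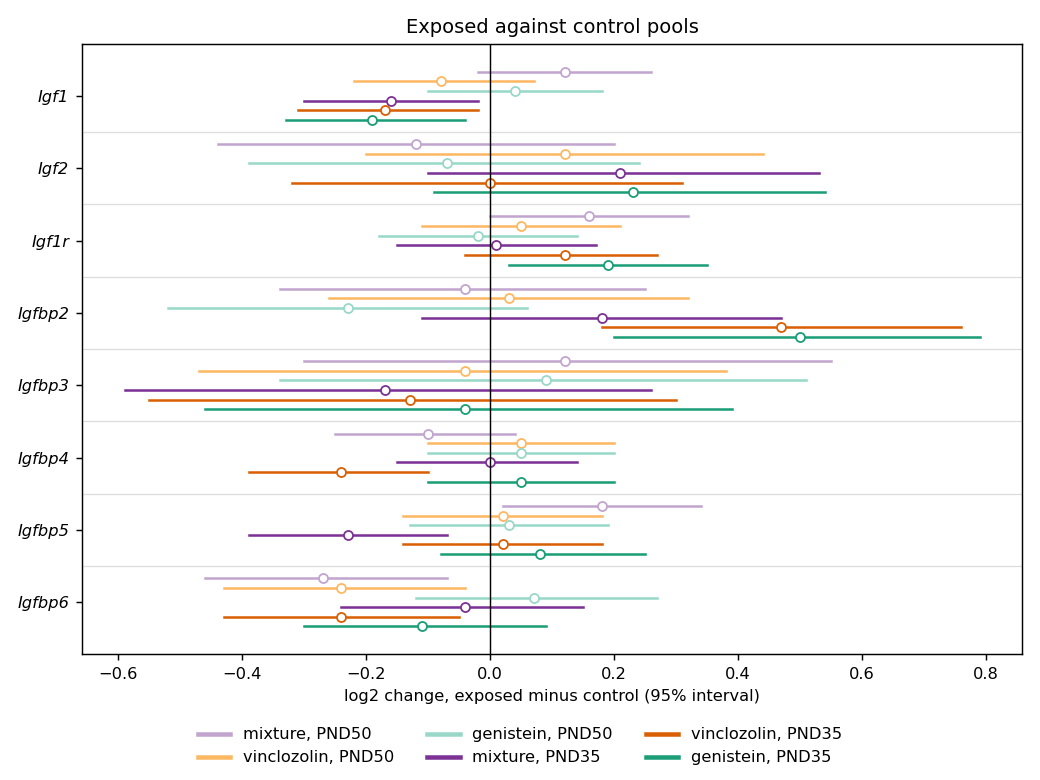
Log2 change of each gene with its 95% interval for exposed against control pools of the same age (x axis, exposed minus control), PND50 in pale and PND35 in dark colours. All points are open because none passed the adjusted test; intervals clear of 0 at PND35 include those of Igf1 in all 3 exposures and of Igfbp2 with vinclozolin and genistein.

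The mixture was also set against each compound alone at the same age, with the dose as given above. None of the 8 genes passed at PND35 against vinclozolin or genistein (2.61% and 0% of all genes) or at PND50 against vinclozolin or genistein (0.0339% and 0.0254%). In the same order, 3, 3, 2 and 3 of the 8 had an unadjusted p under 0.05. Of the 11796 genes tested, 2452, 1417, 1342 and 999 did. At PND35 Igfbp4 was at 11.01 and 10.93 with the mixture and at 10.72 and 10.74 with vinclozolin (log2 change 0.24, SE 0.067, 95% interval 0.09 to 0.39, adjusted p = 0.0772). For Igfbp5 the mixture pools, 12.37 and 12.26, lay below the vinclozolin pools, 12.59 and 12.55 (log2 change -0.25, SE 0.074, adjusted p = 0.0875), and below the genistein pools, 12.68 and 12.58 (log2 change -0.32, SE 0.074, adjusted p = 0.246). At PND50 Igfbp6 had 10.94 and 11.01 with the mixture and 11.26 and 11.37 with genistein (log2 change -0.34, SE 0.088, adjusted p = 0.359).

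The order of the 8 groups differed from gene to gene. For Igfbp5 the group means ran from PND50 mixture (13.03) through the other PND50 groups (12.88 to 12.85) and then genistein, vinclozolin and control at PND35 (12.63 to 12.55) to PND35 mixture (12.31). Pools of neighbours in that order overlapped in 4 of 7 steps, and the 3 steps without overlap were those below PND50 mixture, between the ages, and above PND35 mixture. For Igfbp6 the PND50 genistein (11.32) and PND50 control (11.24) groups stood first and PND35 vinclozolin (10.74) last, with overlap in 4 of 7 steps. For Igf2 all 7 steps overlapped, so no neighbours in its order stood apart, although groups farther apart in the order did, such as mixture at PND50 (7.15 and 7.39) and mixture at PND35 (7.45 and 7.83). For Igf1, Igfbp2 and Igfbp3 overlap was found in 6 of 7 steps, and for Igf1r and Igfbp4 in 5 of 7. Steps were not counted for genes outside the axis, and each order was taken from the same values, so these counts are descriptions.

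Across the 16 arrays the members of the axis did not move as a block. Igf1r and Igfbp5 had the highest correlation of the 28 pairs (r = 0.79, and 0.59 with the age means removed). Igfbp3 and Igfbp5 had r = -0.61, which became 0.11 with the age means removed, and Igf1 and Igf2 had r = -0.58, or -0.50 with them removed. The points share arrays, ages and treatments, and these values are descriptions over n = 16 arrays.

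Markers of other cells moved with the genes too. Igf1r correlated with the mean of 14 luminal markers at r = 0.86 (0.74 with the age means removed) and Igfbp5 at 0.81 (0.58). Igfbp2 had r = 0.66 with luminal markers (0.84) and -0.84 with macrophage markers (-0.85). Igf2 had r = 0.72 with skeletal muscle markers (0.62), while Igfbp5 had -0.76 (-0.58) and Igf1 had -0.65 (-0.58). Igfbp4 had r = -0.80 with the skin and hair follicle markers, and the 2 vinclozolin pools at PND35 had both the highest marker means and the lowest Igfbp4 values. These skin and hair follicle markers had passed the filter with those 2 pools included. Luminal markers averaged 9.89 to 10.10 at PND50 and 9.55 to 10.09 at PND35, and muscle markers 6.35 to 9.77 at PND50 and 8.28 to 10.63 at PND35. Of 14 luminal markers 9 rose and none fell with age in the average over treatments, and of 11 muscle markers 9 fell and none rose, against 19.4% of all genes higher and 25.2% lower. Of 12 white adipocyte markers 5 fell and none rose (median log2 change -0.20), with means of 11.01 to 11.33 at PND50 and 11.03 to 11.61 at PND35. Within single treatments the median luminal change was 0.44 in mixture, 0.20 in vinclozolin, -0.10 in genistein and 0.41 in control groups. The median muscle change was -3.06 in mixture, 0.71 in vinclozolin, -1.69 in genistein and -1.28 in control groups. Positive changes were found for 4 of 14 luminal markers in genistein groups and for 11 of 11 muscle markers in vinclozolin groups. Igfbp3 had r = 0.65 with the adipocyte markers (0.35 with the age means removed), -0.72 with the luminal markers (-0.42) and -0.62 with the basal and myoepithelial markers (-0.53). The part of these markers in the age differences of Igfbp5, Igf1r, Igfbp3 and Igf2 was not tested.

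**Figure D4:**
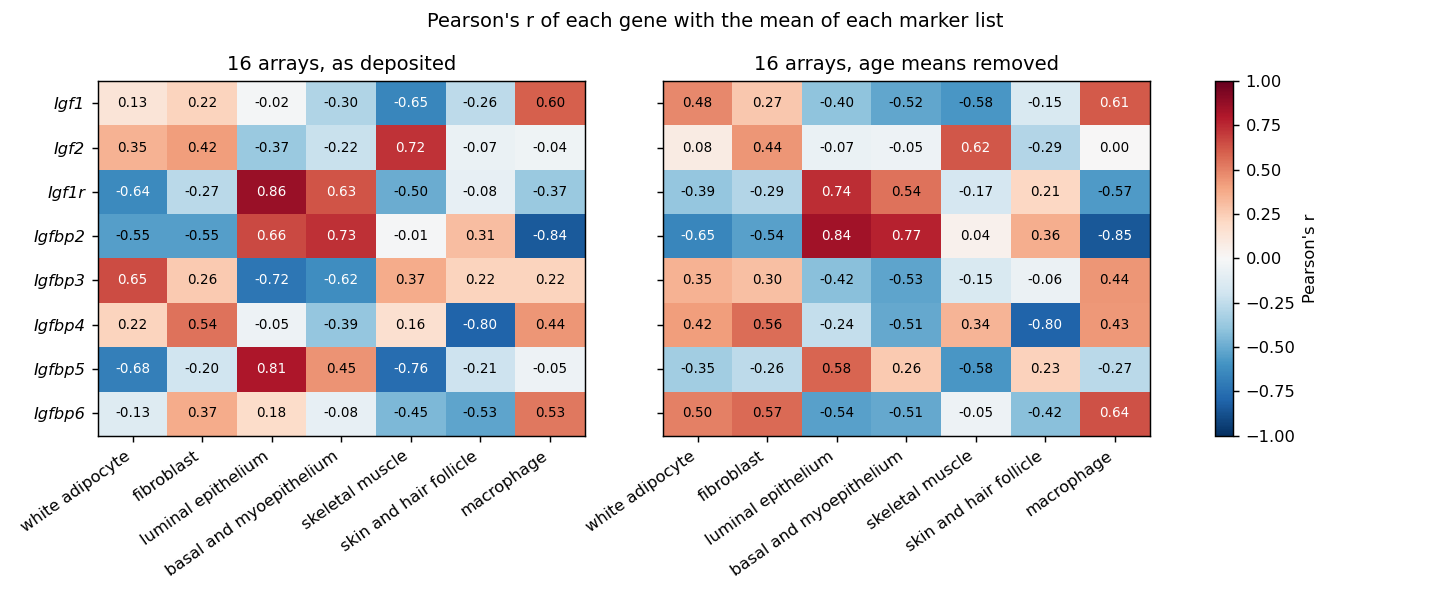
Pearson's r over 16 arrays between each gene and the mean log2 value of each marker list, as deposited (left) and with the mean of each age removed (right), with the value in each cell. Igf1r and luminal markers (0.86) and Igfbp2 and macrophage markers (-0.84) are the strongest positive and negative cells at left.

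The genes with the most similar profiles over the 16 arrays differed by member. Genes with provisional or microRNA symbols, such as those beginning with LOC, RGD or Mir, were left out of this ranking. The values are the highest found among all other genes tested and are descriptions. For Igfbp5 they were Hivep3 (r = 0.976), Raph1, an actin regulator of the cell edge (0.96), and Mansc1 (0.957). For Igf1r they were Ntn1, which encodes the guidance cue netrin-1 (0.937), Zc3h12c (0.935) and Frmd8 (0.931). For Igfbp2 they were the epithelial splicing factor Esrp1 (0.896), the epithelial transcription factor Ovol2 (0.887) and the syndecan Sdc4 (0.876). For Igf1 they were the receptor gene Gfra2 (0.898), the leukocyte surface gene Cd48 (0.878) and the adipocyte galectin Lgals12 (0.868). Igfbp6 was closest to Mrgprf (0.901), Igfbp3 to the synaptic gene Snap25 (0.879), Igf2 to Nop9 (0.864) and Igfbp4 to Mxd4 (0.846). With the age means removed, the closest gene named had r = 0.91 for Igfbp5, 0.89 for Igf1r, 0.9 for Igfbp2 and 0.88 for Igf1. That value was 0.82 for Igfbp6, 0.75 for Igfbp3, 0.86 for Igf2 and 0.84 for Igfbp4.

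Genes around the axis were followed through 4 lists. Of 8 genes of growth hormone and STAT5 signalling, 2 rose with age in the average over treatments and none fell, with a median log2 change of 0.13 against -0.008 over all genes. Over all genes 19.4% rose and 25.2% fell in that average, and these shares apply to the counts of the other lists too. Socs3, a feedback inhibitor of cytokine signalling, rose by 0.45 (SE 0.094, adjusted p = 0.00312, n = 8 pools per age), and Stat5b, a transcription factor that carries the growth hormone signal, by 0.19 (SE 0.041, adjusted p = 0.00344). Ghr, the growth hormone receptor, named for its role after the values were seen, had -0.01 (SE 0.055, adjusted p = 0.902). In the mixture groups alone Socs3 rose by 0.95 (SE 0.19, adjusted p = 0.00414, n = 2 pools per age).

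Of 16 genes of insulin and IGF signalling 13 were named and tested, 2 rose and 6 fell with age (median log2 change -0.06), 8 of 13 in all against 44.6% of all genes. Pik3r1, a regulatory subunit of phosphoinositide kinase, rose by 0.33 (SE 0.062, adjusted p = 0.00161, n = 8 pools per age). Grb10, an imprinted adaptor that restrains the insulin and IGF1 receptors, fell by 0.25 (SE 0.047, adjusted p = 0.00183), Rps6kb1, the S6 kinase, fell by 0.16 (SE 0.038, adjusted p = 0.00555), and Mtor fell by 0.11 (SE 0.030, adjusted p = 0.0104). Igf2r, the receptor that clears IGF2, likewise named after the values were seen, had -0.04 (SE 0.031, adjusted p = 0.304). Irs1, the docking protein below the receptors, was the sole gene of the 4 lists called between exposures, higher by 0.50 in mixture than in vinclozolin pools at PND35 (SE 0.099, n = 2 pools per group, adjusted p = 0.0257), against 2.61% of all genes called there. In that comparison 5 of the 6 skin and hair follicle markers kept by the filter were called lower (median log2 change -3.7). The filter had included the vinclozolin pools compared here. Positive values were found for 12 of 12 white adipocyte markers (median 0.28), 11 of 12 fibroblast markers (median 0.26) and 11 of 11 muscle markers (median 1.45). The median over all genes was 0.016. The part of these markers in the Irs1 value was not tested.

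Of 14 other binding proteins, their proteases and protease inhibitors, 10 were tested, 2 rose and 1 fell with age (median log2 change 0.03), 3 of 10 in all against 44.6% of all genes. Stc2, whose product inhibits the IGFBP protease pappalysin, rose by 0.61 (SE 0.19, adjusted p = 0.0232, n = 8 pools per age), Mmp2, a matrix protease, rose by 0.16 (SE 0.035, adjusted p = 0.00308), and the lysosomal protease gene Ctsd fell by 0.23 (SE 0.080, adjusted p = 0.0363). Igfals, which encodes the third partner of the circulating IGF complex, rose by 0.36 in the mixture groups (SE 0.11, n = 2 pools per age, adjusted p = 0.0286).

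Of 8 imprinted genes known to be expressed with Igf2 in development, 7 were tested, 3 fell and none rose with age (median log2 change -0.21), against 25.2% of all genes lower. Meg3 fell by 0.53 (SE 0.047, adjusted p = 3.72e-05, n = 8 pools per age), with all 8 PND50 pools below all 8 PND35 pools, as for 3.98% of genes, and was called lower in each of the 4 treatments alone, by 0.40 to 0.64. H19, the noncoding gene beside Igf2, fell by 0.33 (SE 0.091, adjusted p = 0.0125), and Ndn fell by 0.21 (SE 0.062, adjusted p = 0.0171).

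**Figure D5:**
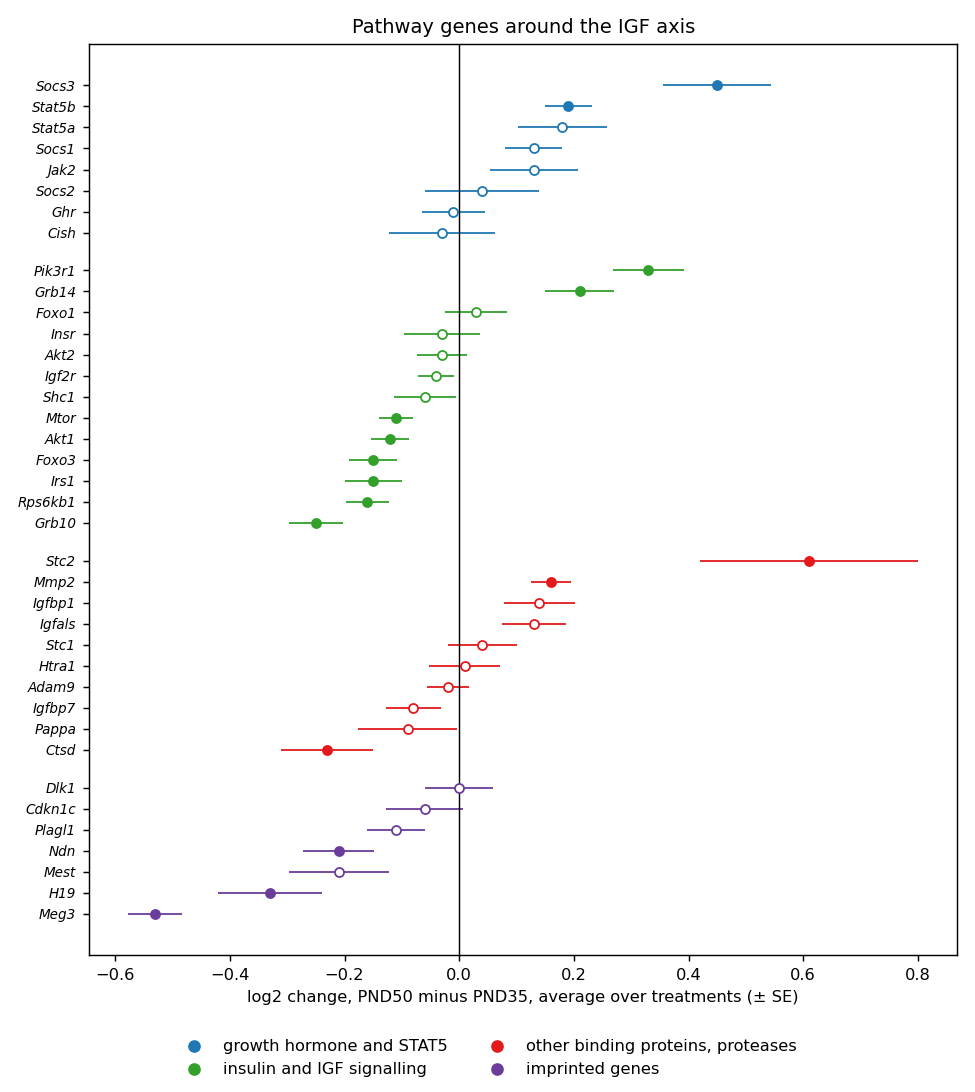
Log2 change with age, averaged over treatments (x axis, PND50 minus PND35, with SE bars), of the tested genes of the 4 lists around the axis. Filled points passed the adjusted test; Stc2 (0.61) lies farthest right and Meg3 (-0.53) farthest left.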

How the data were processed

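The values deposited by the authors form 1 table of 27342 probe sets by 16 arrays, read as log2 intensities from their range of 2.20 to 13.95, since their log base, background correction, normalization and summarization were not given in the sources used. The 16 medians ran from 7.05 to 7.145, and the values were tested without renormalizing them. Probe sets were named through the platform's annotation, updated by gene identifier to RefSeq symbols, which left 15097 probe sets with exactly 1 symbol. For each symbol the probe set with the highest mean was kept, and genes whose mean fell below the 25th percentile (over all probe sets) were dropped. Tests used limma 3.58.1 in R 4.3.3 (lmFit, eBayes), 1 mean per group over all 16 arrays with 8 residual degrees of freedom, two-sided, in 21 comparisons. The number of arrays limits the precision. Fits were tested on simulated data. Members, lists and tests were chosen with earlier results of these data known. All 8 members were named, with up to 4 genes per list by smallest adjusted p with age, any called in another comparison, and the closest 3 genes by correlation; Ghr and Igf2r were added. Replicate numbers did not pair the pools (r over 0.1 in 8 of 28 pairs of groups). Alternatives were other filters and normalizations, averaging a symbol's probe sets, a replicate block, array weights, a robust trend, fits on fewer arrays, and leave-one-out fits. Python 3.11.15 with matplotlib 3.10.9 made the plots.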

Additional observations from a re-analysis of the deposited data

How the results depend on the processing

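Over the 21 comparisons, 156 of the 168 tests of a member stayed on the same side of the threshold under every one of their 25 or 26 alternatives, 12 changed side under at least 1, and none turned its direction while called. The 4 calls of the age average (Igfbp5, Igfbp6, Igf1r, Igfbp3) held in all 25, with a count of 4 or 5 when each pool was left out in turn; the fifth was Igf2, with adjusted p = 0.0228 and a log2 change of -0.25 without both vinclozolin PND35 pools, 0.0282 without PND35 mixture replicate 1 and 0.0355 without PND35 vinclozolin replicate 2. In the vinclozolin age comparison the count of 1 became 0 with no filter, with each array centred on its median, with array weights and with arrays of the groups compared only, 2 with the filter at the 50th percentile, 2 with the robust trend, and 0 in every fit that left out 1 pool. In the genistein age comparison it became 0 with array weights and with arrays of the groups compared only, and was 0 or 1 with 1 pool left out. In the control age comparison it became 1 with array weights (Igfbp5, adjusted p = 0.0399). In the mixture age comparison it was 1 to 4 with 1 pool left out, and the Igf1 call was lost under quantile normalization (adjusted p = 0.0717) and median centring (0.086). For vinclozolin against control at PND35, and for its average over ages, the count was 0 or 1 with 1 pool left out. The cause of these changes was not tested. With the replicate block, which the pools' deviations do not bear out as a pairing, the vinclozolin age count became 2 (Igfbp5, adjusted p = 0.0433), and no other count of members moved by over 1.5 times. The number of pools limits what could be called, with a median SE of 0.0941 between groups of 2 pools.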
